A study of Mus musculus with 6 samples.

Results

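The nuclear hormone receptors are a family of transcription factors, many of which are switched by small lipophilic molecules such as steroids, thyroid hormone, vitamin D, retinoids, oxysterols and fatty acids. The genes described here are 41 receptors of the mouse, taken by gene symbol from a table of 53735 features. No threshold on a measured value was used, but the list was chosen with earlier results of these data known. Some receptors of the superfamily, among them Pparg and Nr1d1, are outside the list. All 41 symbols were found in the table.

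The series asks how phagocytosis acts on cells of the mesenchymal and osteoblast lineage. Bone marrow stromal cells of wild-type mice (genotype wt, strain and age not given) were sorted as CD51-positive cells without lineage markers, CD45 or CD31. Expansion was at 2% oxygen, and cells of passage 2 or 3 entered the experiment. The 3 fed libraries come from wells given dye-labelled apoptotic thymocytes and kept for 24 h at 5% oxygen, and from these wells only label-positive cells were collected. The 3 control libraries come from wells without thymocytes, also sorted and also labelled 24 h, and the labels do not say whether these wells were moved to 5% oxygen. Feeding, a change of oxygen if the controls had none, and selection of label-positive cells cannot be told apart in this design. Nothing in the labels tells if the libraries of a group are from separate cultures or animals. The p-values therefore speak only of the spread between these libraries, and that spread may be technical.

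As background, a nuclear receptor binds DNA through zinc fingers and binds its ligand, where it has one, through a separate domain whose shape decides whether coactivators or corepressors are recruited. Steroid receptors wait in complexes with HSP90 chaperones. Receptors for retinoic acid, thyroid hormone, vitamin D, oxysterols and fatty acids pair with RXR on repeated half-sites in DNA. Orphan receptors, such as the NR4A proteins, are controlled mainly by how much of them is made. In marrow stroma these receptors are known for their part in the choice between bone and fat fates and in lipid handling.

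Library totals ran from 19069074 to 22410047 counts, with both groups covering similar depth. Values below are CPM, counts divided by the TMM-scaled library total and multiplied by 1000000, and log2 fold changes are fed against control with a standard error. All 14 mesenchymal stromal markers were tested, and their summed level was 36917 to 38396 CPM in control and 32382 to 34298 CPM in fed libraries, mostly from Col1a1 and Col1a2. Of these 14, 7 were called lower (among them Pdgfra, Pdgfrb and Thy1), 2 higher and 5 not called. Log2 fold changes of the 14 ran from -0.45 to 0.47, with a median of -0.15. Of 18 thymocyte markers 2 were tested, Tcf7 and Lck, and neither was called (log2 fold changes 0.10 and -0.62). The 18 markers summed to 3.26 to 3.53 CPM in control and 3.45 to 4.93 CPM in fed libraries, and 4 of them were at 0 throughout. Among the untested ones Rag1 had 0, 2 and 1 counts in control and 7, 6 and 12 counts in fed libraries, and Cd8a, Cd8b1 and Dntt had none in control and 1 to 5 counts in each fed library. Themis went the other way, with 1, 1 and 1 counts in control and 0, 0 and 1 counts in fed libraries. Of 12 macrophage markers 4 were tested, 2 were called higher (Lyz2 and Cd14) and 1, Fcgr1, was at 0 throughout. C1qa, C1qb, C1qc and Adgre1 had no count in control and 3 to 10 counts in each fed library. The macrophage sum was 14.0 to 15.3 CPM in control and 20.3 to 21.9 CPM in fed libraries, and the part of such cells in the results was not tested. The 8 endothelial markers summed to 5.79 to 6.11 CPM in control and 4.05 to 5.40 CPM in fed libraries, with 4 at 0. Of 2 tested, Vwf was called lower and Tek was not called (3.04 and 2.92 CPM in control and fed means). The 12 markers of B cells, granulocytes and erythroid cells summed to 0.316 to 0.472 CPM in control and 0.705 to 1.33 CPM in fed libraries, with 7 at 0 and the 1 tested, S100a8, called higher (0.176 to 0.777 CPM). In bulk samples, fewer cells of a type and less RNA per cell cannot be told apart.

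Of the 41 receptors, 25 had enough counts to be tested. In fed cells 3 were called higher, Vdr, Nr1h3 and Nr4a2. Another 7 were called lower, namely Thra, Rara, Rora, Nr1h2, Nr6a1, Nr2c2 and Ppard, and 15 were not called (edgeR quasi-likelihood test, Benjamini-Hochberg adjusted p under 0.05 over 13092 genes). The called share was 40.0% of tested receptors, beside 39.5% of all genes tested, so the number of changed receptors is near the background and is no result about the family. By direction the receptors gave 12% higher and 28% lower, beside 20.5% and 19.0% of all genes. The median log2 fold change was -0.04 for the receptors and -0.01 for all genes. CPM did not overlap between the groups for 11 tested receptors (44.0%), beside 49.1% of all genes. The changes were small, and Nr6a1 alone among the called receptors reached 1.5-fold. Without fed replicate 2, 4 receptors were called lower in place of 7, and DESeq2 also called 4. The calls of Nr2c2 and Ppard were the least stable, and both are marked where they are described.

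**Figure D1:**
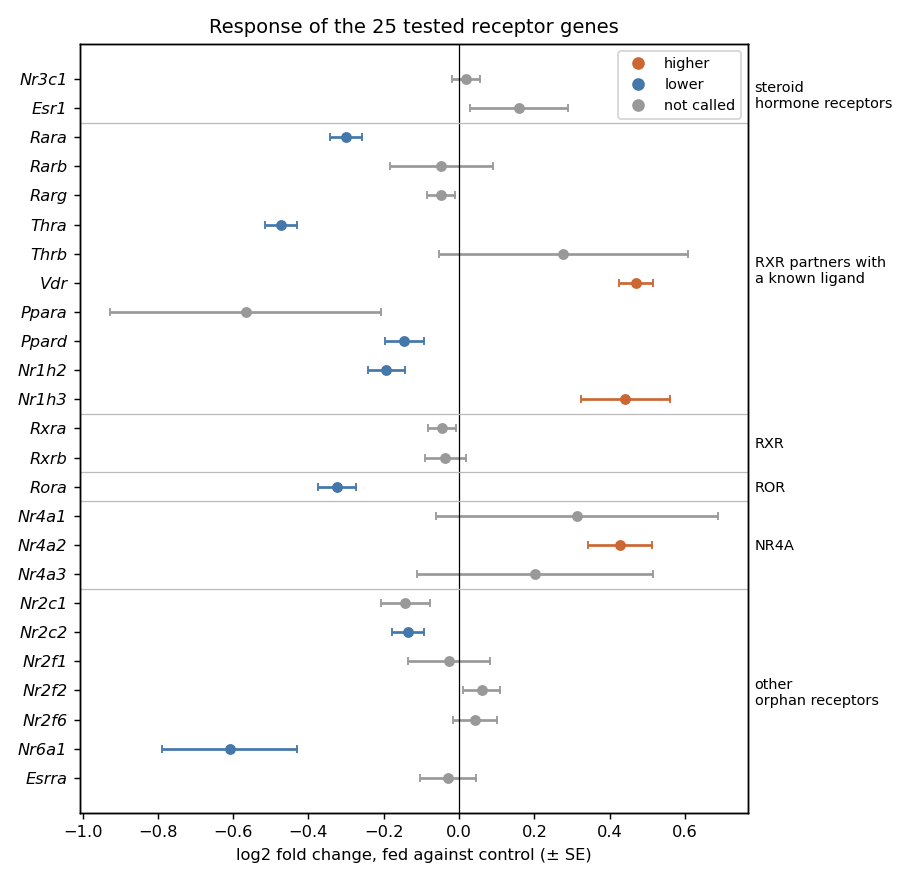
Log2 fold change (fed against control, point) with its standard error (bar) of the 25 tested receptors, grouped by class, with called receptors in colour. Thra and Nr6a1 lie farthest below 0 among the called receptors and Vdr farthest above, at 0.47.

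The receptors differed widely in level. On a per-length scale, CPM per kilobase of merged exons, the highest control mean was that of Rarg, a retinoic acid receptor, at 33.9 ± 0.858 (SD, n = 3). Rxra, the common partner of many receptors, followed at 28.8 ± 0.705, and the libraries of these 2 genes did not overlap. Rara at 20.2 ± 0.355, the thyroid hormone receptor Thra at 19.8 ± 0.450 and the oxysterol receptor Nr1h2 at 18.9 ± 1.03 came next. Rara overlapped Thra, and Thra overlapped Nr1h2, so the order among these neighbours is within the spread. Below them stood the glucocorticoid receptor Nr3c1 at 15.3, Nr2f6 at 13.0 and the vitamin D receptor Vdr at 10.6. In the fed libraries Rara, Thra and Nr1h2 had means of 16.4, 14.3 and 16.6, and Vdr reached 14.7 on this per-length scale. At the low end of the tested receptors Nr4a3 had a control mean of 0.105. The order of ranks 2 to 5 depends on which gene length is used.

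**Figure D2:**
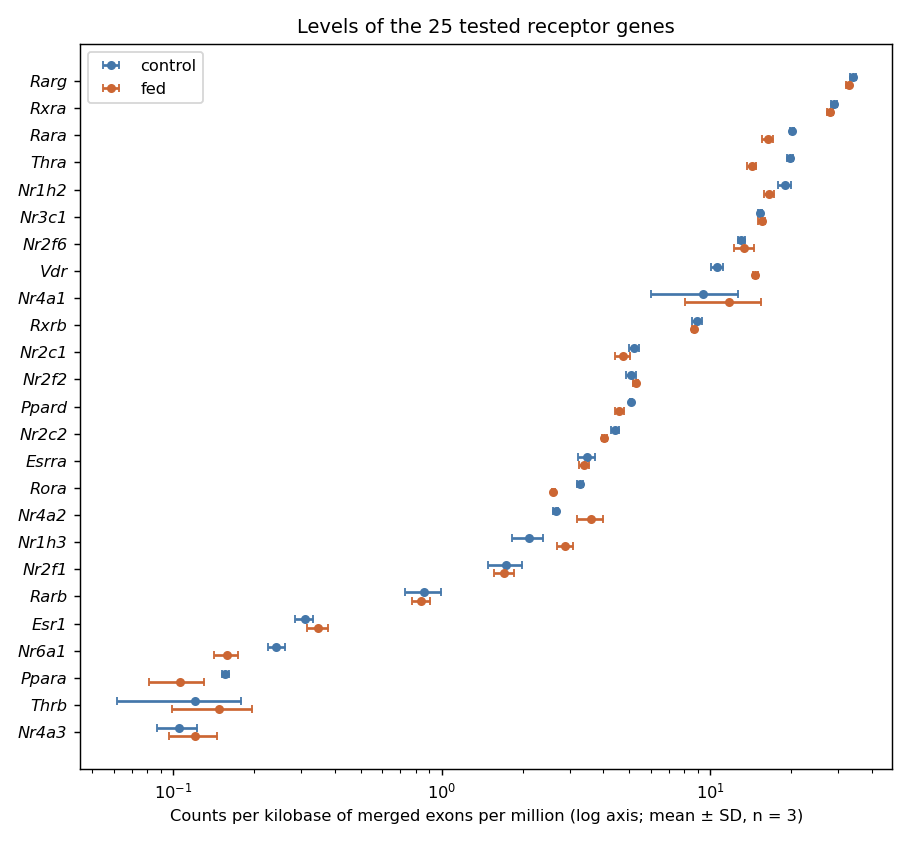
Level of each of the 25 tested receptors in CPM per kilobase of merged exons (log axis), mean ± SD of 3 control and 3 fed libraries. Rarg and Rxra stand at the top in both groups, and Thra, Rara and Vdr show separated groups.

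The steroid hormone receptors gave no call. Nr3c1, which binds glucocorticoids, was at 120, 117 and 117 CPM in control and 116, 123 and 119 CPM in fed libraries, a log2 fold change of 0.02 ± 0.038 (adjusted p = 0.733). Its groups overlapped throughout. The estrogen receptor Esr1 had means of 4.22 CPM in control and 4.71 CPM in fed libraries (0.16, adjusted p = 0.351). The progesterone receptor Pgr, the mineralocorticoid receptor Nr3c2 and the second estrogen receptor Esr2 had only 43, 19 and 13 counts over all 6 libraries and were not tested.

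Chaperones that hold steroid receptors moved in a single direction among those called. Of 16 tested, 10 were called higher, none lower and 6 were not called. That is 62.5% called, with a median log2 fold change of 0.17. Of all genes tested 39.5% were called, 20.5% higher and 19.0% lower, and these shares stand beside each list below. Hsp90ab1, with the highest CPM of the list, was not called but went the other way without overlap. It was at 1989, 2054 and 2025 CPM in control and 1954, 1923 and 1902 CPM in fed libraries (-0.07, adjusted p = 0.141). Fkbp5, a cochaperone that holds the glucocorticoid receptor in a state of low ligand affinity, was at 31.5, 30.7 and 30.3 CPM in control and 45.5, 46.8 and 45.1 CPM in fed libraries (0.57 ± 0.050, adjusted p = 2.02e-08). Fkbp4, which exchanges with it, rose from 96.5 to 130 CPM (0.43) and the cyclophilin Ppid from 27.7 to 36.8 CPM (0.41). All 3 had every fed library above every control library. Of 17 tested genes known as glucocorticoid receptor targets, 5 were called higher, 5 lower and 7 not called (58.8% called, median 0.03). Lcn2, an iron-siderophore carrier, rose from 106 to 203 CPM (0.93), while Ddit4, an inhibitor of mTORC1, fell by 1.31 on the log2 scale. Fkbp5 belongs to both lists.

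Of 13 listed receptors that pair with RXR and have a known ligand, 10 were tested. Of these 2 were called higher, 4 lower and 4 not called, beside 39.5% of all genes called. Within pairs and trios of related receptors the members were not all called alike, but no difference between members was tested.

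Thra was by far the higher of the thyroid hormone receptor genes in these cells (chromosome 11, 98740638 to 98769006, plus strand of GRCm38). It was at 93.3, 89.2 and 91.4 CPM in control and 65.7, 63.2 and 68.4 CPM in fed libraries. Every fed library was well below every control library, and the log2 fold change was -0.47 ± 0.042 (adjusted p = 2.67e-08). Thrb, the other thyroid hormone receptor, was at 0.893 ± 0.436 CPM in control and 1.09 ± 0.359 CPM in fed libraries and was not called (adjusted p = 0.538). Per length, Thra made up 99.4% of the pair in control and 99.0% in fed libraries. Counts are per gene and do not separate the transcripts of a gene. On the opposite strand 263 exonic bases of Thra, 5.7% of its exons, overlap the clock repressor gene Nr1d1, which was called higher (82.7 to 127 CPM, log2 fold change 0.62). The counting's strand setting is unknown here, so reads in the shared stretch cannot be assigned. Nr1d1 rose where Thra fell.

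Genes that handle thyroid hormone were also called, and the 2 given here were singled out after their values were seen. Dio2, which makes the active hormone, was at 6.26, 6.09 and 7.43 CPM in control and 3.42, 2.99 and 2.47 CPM in fed libraries (-1.16 ± 0.14, adjusted p = 1.65e-06). Dio3, which inactivates the hormone, was at 237, 242 and 247 CPM in control and 282, 312 and 302 CPM in fed libraries (0.30 ± 0.040). In both genes the groups did not overlap.

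Of the 3 retinoic acid receptors only Rara was called. Rara (chromosome 11, 98927818 to 98974942, plus strand) was at 89.3, 88.8 and 86.4 CPM in control and 71.5, 75.0 and 68.3 CPM in fed libraries. All fed libraries were below all control libraries, with a log2 fold change of -0.30 ± 0.042 (adjusted p = 1.05e-05). Rarg was at 140, 145 and 148 CPM in control and 139, 143 and 137 CPM in fed libraries, with overlapping groups (-0.05 ± 0.037, adjusted p = 0.329). Per length, Rara held 35.9 to 37.6% of the trio in control and 32.2 to 33.3% in fed libraries, and Rarg held the larger part, with means of 61.7% and 65.5%. These shares are a description without a test. The third receptor, Rarb, was at 4.54 ± 0.693 CPM in control and 4.41 ± 0.332 CPM in fed libraries (adjusted p = 0.814). Of its exons 34.1% (1793 bases) overlap Top2b, a topoisomerase gene on the other strand at 178 CPM in control and 155 CPM in fed libraries, so reads of the overlap cannot be told apart and its low count is uncertain.

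Rarb is also the textbook case of a retinoic acid response element. The stretch is shown because it is the only direct repeat of this kind in any of the 56 RefSeq promoter windows (250 bases before to 50 after a start) found for 38 of the receptors. Capitals mark the half-sites GGTTCA and AGTTCA, 5 bases apart. It lies on the minus strand at chr14:16575507-16575536 of GRCm38.p6, positions -60 to -31 from the start.
Rarb: cgggaagGGTTCAccgaaAGTTCActcgca
The search allowed as each half-site AGGTCA as well as GGGTCA, together with the forms seen here, AGTTCA as well as GGTTCA. With a spacer of 5 and both strands read, such repeats were found in 32 of 32851 windows (0.0974%). Among the retinoic acid targets Cyp26a1 held such a repeat. A match of letters is a description and not evidence of binding here.

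Enzymes of retinoid handling went both ways. Dhrs3, which turns retinal back to retinol, was at 202, 193 and 186 CPM in control and 132, 138 and 137 CPM in fed libraries (-0.52 ± 0.039). Aldh1a2, which makes retinoic acid, fell from 152 to 108 CPM (-0.49), while Aldh1a3, with the same activity, rose from 26.4 to 36.5 CPM (0.47). Rdh10, which makes retinal and was singled out after its values were seen, rose from 12.3 to 16.9 CPM (0.46). Over the whole list of enzymes, carriers and transporters of receptor ligands, 29 genes were tested, of which 8 were called higher, 8 lower and 13 not called (55.2% called, median -0.06). The count called lower was 5 without control replicate 1, without fed replicate 2, with library totals as the only scaling, and by DESeq2. Of 13 tested genes known as retinoic acid targets 5 were called lower, none higher and 8 not called. That is 38.5% called, no more than the 39.5% of all genes, with a median of -0.21, and 3 were called lower without fed replicate 2. Besides Dhrs3 these included Meis2 (44.6 to 37.6 CPM) and Tshz1 (32.7 to 27.0 CPM), transcription factors of patterning.

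Vdr, the vitamin D receptor (chromosome 15, 97854425 to 97910630, minus strand), was at 63.4, 57.6 and 58.9 CPM in control and 82.6, 81.5 and 85.1 CPM in fed libraries. The groups stood well apart, with a log2 fold change of 0.47 ± 0.044 (adjusted p = 5.68e-08). Of 15 genes known as its targets only 6 could be tested, and 2 were called higher, 1 lower and 3 not called. Thbd, the thrombin receptor thrombomodulin, rose from 201 to 269 CPM (0.42). Enpp3, an ectonucleotidase, fell from 15.4 to 6.61 CPM (-1.22). Enpp1, which makes the mineralization inhibitor pyrophosphate, was at 51.2, 46.9 and 49.8 CPM in control and 63.2, 55.0 and 52.6 CPM in fed libraries (0.21, adjusted p = 0.0145). It did not pass without control replicate 2 (adjusted p = 0.0688) and without fed replicate 1 (0.0648), which leaves 1 of the 6 called higher.

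The oxysterol receptors moved in opposite directions. Nr1h3 (chromosome 2, 91184061 to 91202834, minus strand), which is abundant in macrophages and fat, was at 6.12, 5.01 and 4.79 CPM in control and 7.68, 6.71 and 7.31 CPM in fed libraries. It was called higher at 0.44 ± 0.12 (adjusted p = 0.00547), with no overlap. Nr1h2 (chromosome 7, 44549616 to 44553951, minus strand), the broadly expressed form, was at 59.6, 66.1 and 64.9 CPM in control and 55.0, 58.0 and 53.7 CPM in fed libraries. It was called lower at -0.19 ± 0.049 (adjusted p = 0.00334), also without overlap. Nr1h3 held 8.96 to 12.0% of the pair per length in control and 13.4 to 15.7% in fed libraries. The macrophage marker sum moved the same way as Nr1h3, with Csf1r at 5.78 and 5.40 CPM, Lyz2 at 3.32 and 7.47 CPM, Cd14 at 4.28 and 5.36 CPM and Cd68 at 1.14 and 1.30 CPM in control and fed means. The 3 C1q genes and Adgre1, given above, had counts in the fed libraries and none in control. Their part in the result for Nr1h3 was not tested.

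Of 13 tested genes known as LXR targets 1 was called higher, 7 lower and 5 not called (61.5% called, median -0.11). The count called higher was 2 without control replicate 1, with library totals only, and with no filter on low counts. The named genes of the list were Scd2, a fatty acid desaturase (539 to 377 CPM), the lipoprotein lipase Lpl (110 to 53.1 CPM) and Mylip, which degrades the LDL receptor (33.2 to 21.7 CPM). All 3 fell in fed cells. The called-higher gene was Arl4c, from 11.7 to 19.6 CPM (0.75, adjusted p = 2.47e-07), without overlap. Ch25h, which makes an oxysterol ligand of these receptors and was singled out after its values were seen, was at 3.10, 3.07 and 2.79 CPM in control and 5.01, 5.70 and 5.51 CPM in fed libraries (0.85 ± 0.13, adjusted p = 3.09e-05). Of its single exon 11.5% overlaps a non-coding gene on the other strand that was at 0.531 and 0.958 CPM.

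Among the fatty acid receptors Ppard (chromosome 17, 28232700 to 28301474, plus strand) was at 37.9, 37.8 and 38.3 CPM in control and 35.5, 34.8 and 32.9 CPM in fed libraries. The groups did not overlap, and it was called lower by a small step, -0.15 ± 0.052 (adjusted p = 0.0302). It was no longer called without control replicate 1, 2 or 3 (adjusted p = 0.0564, 0.0698 and 0.0641) or without fed replicate 2 or 3 (0.0605 and 0.135). DESeq2 gave an adjusted p of 0.117, library totals only gave 0.0882, and no filter on low counts gave 0.0715. Ppara had 13, 13 and 11 counts in control and 10, 9 and 7 in fed libraries. Its groups did not overlap either, at 0.602, 0.614 and 0.579 CPM against 0.496, 0.414 and 0.308 CPM, but it was not called (-0.57 ± 0.36, adjusted p = 0.226). Of 19 tested genes known as PPAR targets 3 were called higher, 8 lower and 8 not called (57.9% called, median -0.05). Acadm, a dehydrogenase of fatty acid oxidation, fell from 55.8 to 40.3 CPM, while the fatty acid carrier Fabp4 rose from 118 to 142 CPM. Lpl, named above, is in this list too.

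RXR itself showed no call. Rxra was at 156, 162 and 154 CPM in control and 149, 156 and 152 CPM in fed libraries (-0.05 ± 0.037, adjusted p = 0.349), and Rxrb at 35.5 ± 1.62 and 34.6 ± 0.619 CPM (adjusted p = 0.624). Both genes had overlapping groups. Per length Rxra made up 76.3% of the 3 RXR genes in control and 76.1% in fed libraries. Rxrg had 8 counts in all and was not tested.

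**Figure D3:**
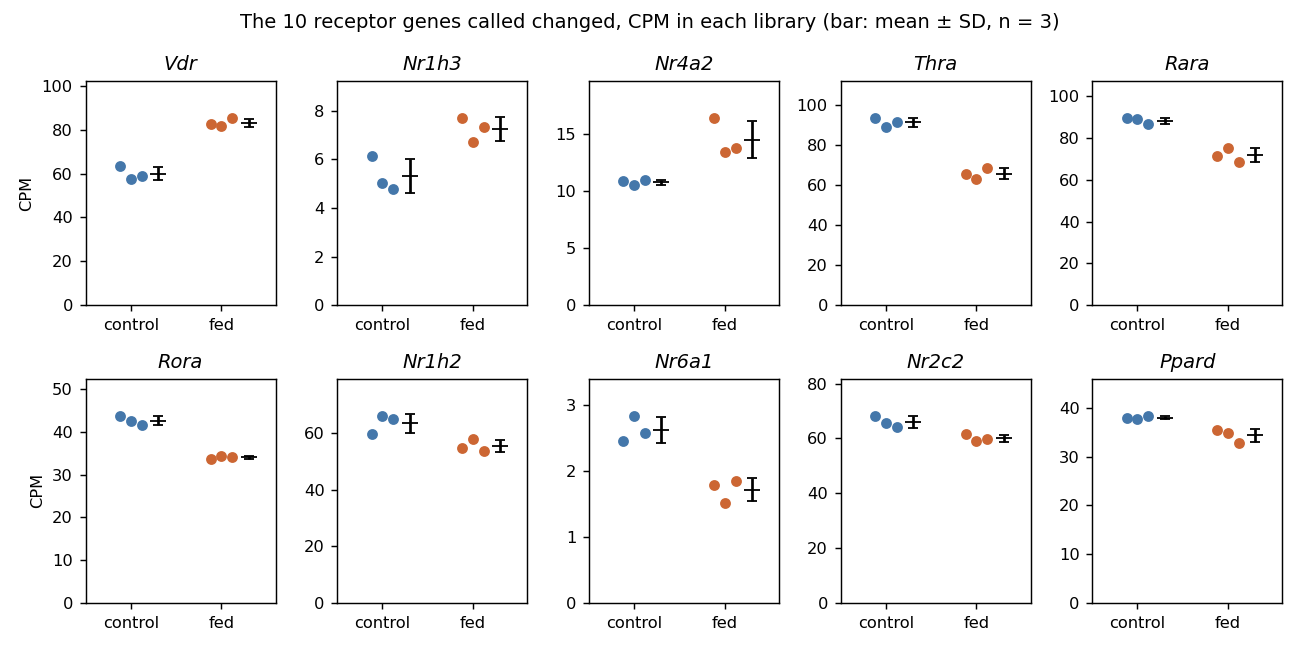
CPM of the 10 called receptors in each of 3 control and 3 fed libraries (points), with mean ± SD beside them and each axis starting at 0. The fed points lie above the control points for Vdr, Nr1h3 and Nr4a2 and below them for the other 7, with no overlap in any panel.

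Rora, the retinoid-related orphan receptor that activates clock genes through single half-sites (chromosome 9, 68653786 to 69388246, plus strand), fell. It was at 43.7, 42.6 and 41.5 CPM in control and 33.6, 34.4 and 34.2 CPM in fed libraries. The groups were far apart relative to their spread, and the log2 fold change was -0.32 ± 0.050 (adjusted p = 2.67e-05). Rorb had 2 counts in all. Of 5 clock genes known to be bound by ROR receptors 4 were called lower (Arntl, Npas2, Nfil3 and Clock) and none higher. Of all genes 19.0% were called lower and 20.5% higher. The median of the 5 was -1.16. Cry1 went the other way, from 8.73 to 9.71 CPM (0.15, adjusted p = 0.223), with overlapping groups and no call. Nfil3, a repressor that works in the clock, was at 82.9, 82.2 and 74.4 CPM in control and 32.7, 34.1 and 40.2 CPM in fed libraries. Arntl, the core activator also known as Bmal1, fell by 2.09 on the log2 scale, as did its relative Npas2. The same half-sites are bound by the repressor made from Nr1d1, which was called higher as given above. Nr1d1 was picked after its values were seen. A part of Rora or Nr1d1 in the fall of the clock genes was not tested.

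The half-sites in the start regions of Arntl and Nfil3 are shown because they are the letters that both ROR and Nr1d1 proteins are known to read. Capitals mark TAGGTCA or TAGGTTA, and in Nfil3 the same letters on the other strand. The Arntl stretches are on the plus strand at chr7:113207496-113207520 and chr7:113207532-113207556, and the Nfil3 stretch on the minus strand at chr13:52981036-52981060 (RefSeq, GRCm38.p6).
Arntl, first site: gtcggaaagTAGGTTAgtggtgcga
Arntl, second site: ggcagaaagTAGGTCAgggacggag
Nfil3: gctcggaacTGACCTActaacacac
TAGGTCA on either strand was found in 2.61% of all 32851 windows and TAGGTTA in 1.44%. None of the 56 receptor windows held either. No match was found in the windows of the other clock genes searched, Npas2, Clock and Cry1, of which Npas2 and Clock were called lower. Plin2 and Acadvl, from the list of PPAR targets, hold TAGGTCA and were not called. As for Rarb, a match of letters is no evidence of binding here.

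The NR4A receptors are orphan receptors of the immediate-early kind, made within minutes to hours of a stimulus. Nr4a2 (chromosome 2, 57106830 to 57124003, minus strand) was at 10.9, 10.5 and 11.0 CPM in control and 16.4, 13.4 and 13.8 CPM in fed libraries. Its groups did not overlap, and it was called higher at 0.43 ± 0.085 (adjusted p = 0.000465). Nr4a1 (chromosome 15, 101254269 to 101274795, plus strand) was at 46.1, 24.0 and 28.3 CPM in control and 55.6, 37.0 and 30.9 CPM in fed libraries. The groups overlapped, replicate 1 was the highest in both, and Nr4a1 was not called (0.31 ± 0.37, adjusted p = 0.569). Leaving out a library moved its log2 fold change between 0.04 (without fed replicate 1) and 0.65 (without control replicate 1), with no call. Nr4a3 stayed low at 0.741, 0.614 and 0.527 CPM in control and 0.595, 0.690 and 0.881 CPM in fed libraries (0.20, adjusted p = 0.643), with overlapping groups.

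The upstream stretches of the 3 NR4A genes are shown because they share short letters of the cyclic AMP response element. Capitals mark TGACG, or CGTCA where it reads on the other strand. Each of the 3 windows held it 4 times, a count of at least 4 that 76 of 32851 windows reached (0.231%), while 20.8% of windows held at least 1. The stretches are from RefSeq, build GRCm38.p6: Nr4a1 at chr15:101266608-101266815 on the plus strand, Nr4a2 at chr2:57124105-57124208 on the minus strand and Nr4a3 at chr4:48045069-48045109 on the plus strand. The Nr4a3 stretch holds 3 of its 4. These matches of letters are likewise a description, and binding was not tested.
Nr4a1: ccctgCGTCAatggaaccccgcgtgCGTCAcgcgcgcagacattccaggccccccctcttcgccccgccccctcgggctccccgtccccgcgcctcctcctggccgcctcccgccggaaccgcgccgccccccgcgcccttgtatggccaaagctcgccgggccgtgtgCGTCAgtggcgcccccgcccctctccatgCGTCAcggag
Nr4a2: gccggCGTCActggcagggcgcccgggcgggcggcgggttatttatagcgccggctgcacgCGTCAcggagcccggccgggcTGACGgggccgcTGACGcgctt
Nr4a3: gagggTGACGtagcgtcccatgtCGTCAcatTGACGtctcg

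**Figure D4:**
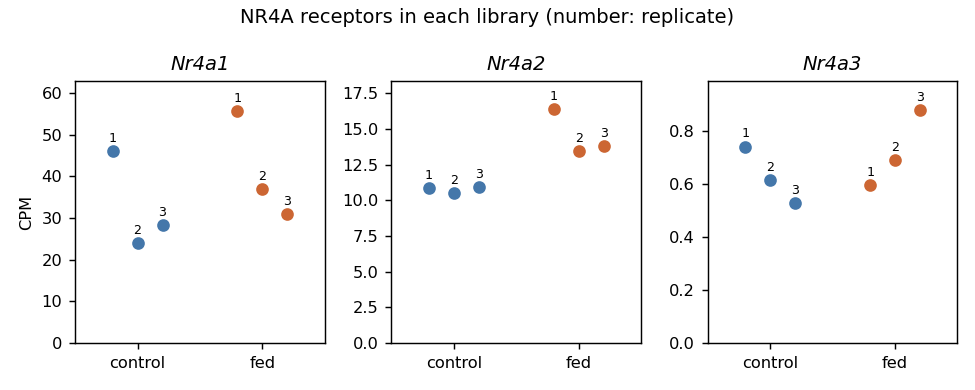
CPM of the 3 NR4A receptors in each library, numbered by replicate, with each axis starting at 0. Fed libraries lie above control libraries for Nr4a2 (13.4 to 16.4 against 10.5 to 11.0 CPM), and the groups overlap for Nr4a1 and Nr4a3.

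Other immediate-early genes were more often called higher than lower. Their log2 fold changes ran from -0.57 (Fosl2) to 1.90 (Arc, called higher, adjusted p = 0.0455). Of 24 tested, 9 were called higher, 2 lower and 13 not called (45.8% called, median 0.35), and the count called higher was 14 by limma-voom and 15 without robust estimation. Maff, a small basic leucine zipper factor, rose from 24.9 to 37.1 CPM (0.58) and Klf4, a zinc finger factor, from 56.8 to 76.5 CPM (0.43). Fosl2, a partner of JUN proteins, was at 373, 376 and 378 CPM in control and 259, 248 and 251 CPM in fed libraries (-0.57 ± 0.035).

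Of the 13 remaining orphan receptors 7 were tested, and 2 of them were called lower. Nr6a1, the germ cell nuclear factor (chromosome 2, 38723370 to 38927688, minus strand), was at 2.46, 2.83 and 2.58 CPM in control and 1.78, 1.52 and 1.85 CPM in fed libraries. The groups did not overlap and the log2 fold change was -0.61 ± 0.18 (adjusted p = 0.00984). The call was lost without fed replicate 2 (adjusted p = 0.0512) and by DESeq2 (0.0607). Nr2c2, known as testicular receptor TR4 (chromosome 6, 92091390 to 92174294, plus strand), was at 68.2, 65.6 and 64.1 CPM in control and 61.5, 59.0 and 59.8 CPM in fed libraries. It was called lower at -0.14 ± 0.043 (adjusted p = 0.0163), with groups close but apart. It did not pass without control replicate 1 (adjusted p = 0.0743), without fed replicate 2 (0.0730), by DESeq2 (0.0684) and with library totals only (0.0612). Of its exons 30.7% overlap Mrps25 on the other strand, a mitochondrial ribosomal protein gene at 21.9 and 25.6 CPM in control and fed means that was itself called higher (0.22, adjusted p = 0.00888), a call lost without fed replicate 2 (0.0586). The shared stretch is 4590 bases, 69.8% of the exons of Mrps25. Its close relative Nr2c1 was not called (-0.14, adjusted p = 0.0894), and it was called lower without fed replicate 3 (-0.19, adjusted p = 0.0420).

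The COUP-TF receptors, orphan receptors known from organ development, showed no call. Nr2f1, Nr2f2 and Nr2f6 had log2 fold changes of -0.03, 0.06 and 0.04 (adjusted p = 0.871, 0.352 and 0.598). Of the exons of Nr2f6 54.4% overlap Ocel1 on the other strand, which was low at 3.69 and 4.02 CPM. Reads of the overlap cannot be assigned, so the counts of Nr2f6 are uncertain. The estrogen-related receptor Esrra, a regulator of mitochondrial genes, was at 15.2 ± 1.07 CPM in control and 14.9 ± 0.618 CPM in fed libraries (adjusted p = 0.774). Of 22 tested genes known as its targets 9 were called higher, 1 lower and 12 not called (45.5% called, median 0.05). Idh3a, a subunit of a citric acid cycle enzyme, was at 52.1, 55.6 and 54.6 CPM in control and 76.2, 78.3 and 78.1 CPM in fed libraries (0.52 ± 0.042), and cytochrome c, Cycs, rose from 21.9 to 31.1 CPM (0.51). The called-lower gene was Acadm.

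The 16 receptors not tested were at or near 0. Nr0b1, Nr0b2, Nr1i2, Nr2e1, Nr2e3 and Nr5a1 had no count in any library, which allows a level of up to 0.132 to 0.158 CPM per library at a floor of 3 counts. Such floors cover counting error only. Among them are Nr5a1, known from the adrenal gland and gonads, Nr1i2, known from the liver, and the NR0B proteins, which lack the usual DNA-binding domain. Nr1h4, Nr5a2 and Esrrg had 7 counts each in all, Nr1i3 and Esrrb 4 each, and the others with some counts are given above. Of the exons of Nr1i3 74.9% (3304 bases) overlap Tomm40l on the other strand, so its low count is uncertain. Tomm40l was at 23.4 CPM in control and 27.0 CPM in fed means.

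Coregulators, which receptors recruit to switch genes on or off, included several that fell. Of 27 tested, 12 were called lower, 2 higher (Carm1 and Prmt1, which methylate arginines) and 13 not called. That is 51.9% called, beside 39.5% of all genes, with a median of -0.12. Pnrc1, a small coactivator, was at 54.5, 58.5 and 59.6 CPM in control and 32.3, 32.1 and 36.8 CPM in fed libraries (-0.77 ± 0.057, adjusted p = 3.09e-09). Ncoa1, the founding steroid receptor coactivator, was at 29.2, 29.0 and 25.4 CPM in control and 19.8, 16.9 and 17.9 CPM in fed libraries (-0.62 ± 0.072). The acetyltransferase Kat2b fell from 42.2 to 31.7 CPM (-0.42). In Pnrc1, Ncoa1 and Kat2b every fed library was below every control library.

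**Figure D5:**
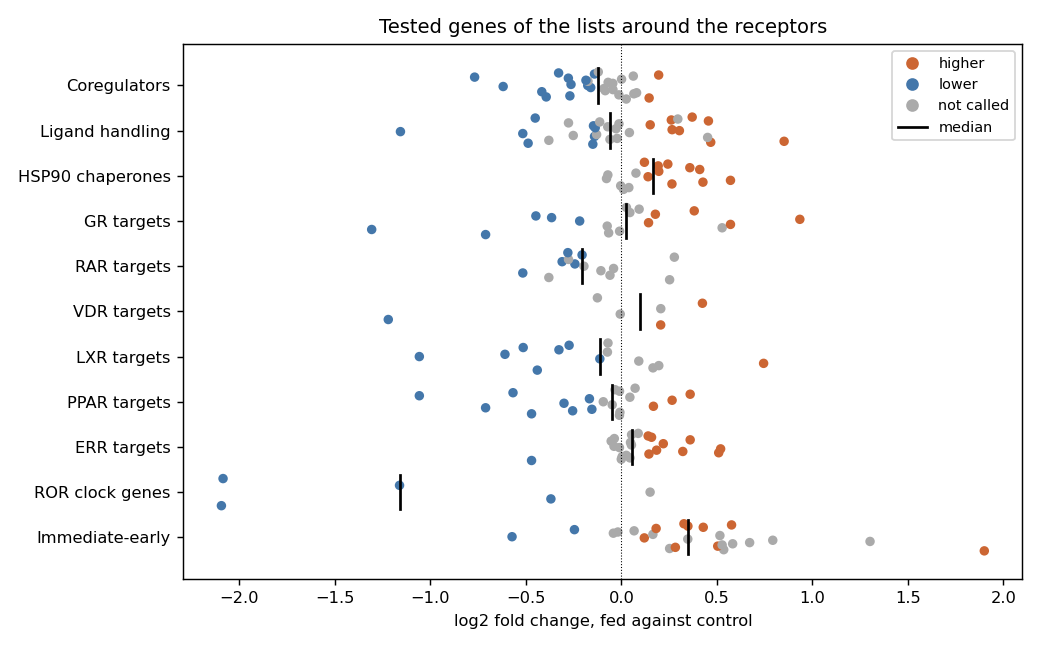
Log2 fold change (fed against control) of each tested gene of the 11 lists around the receptors, coloured by call, with the median of each list as a bar. The clock genes known to be bound by ROR have the lowest median (-1.16), with Cry1 above 0. The chaperones called all lie above 0.

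Summed over all 41 receptors, the level was 1098.9 ± 12.7 CPM in control and 1058 ± 9.24 CPM in fed libraries, with ranges of 1092 to 1114 and 1048 to 1066 CPM. These ranges do not overlap. The sum of the thyroid hormone receptors was 92.2 CPM in control and 66.9 CPM in fed libraries, and that of the retinoic acid receptors 237 and 216 CPM. These sums are a description without a test.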

How the data were processed

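The series holds 3 control and 3 fed libraries, made by a stranded preparation from polyadenylated RNA. The authors deposited raw counts for each gene symbol. Their tools, per the submitters' processing notes, were STAR 2.6.0c, Trimmomatic 0.36, MultiQC 1.5 and Subread 1.6.1 (featureCounts), and the build was GRCm38. Not given in the sources used here are the strand setting, the release of the gene annotation and the treatment of reads matching several places, so genes that overlap others are uncertain. Library totals were 21949519, 21466553 and 19069074 counts in control and 20034583, 21520141 and 22410047 in fed libraries. Libraries of a group differed by more than sampling noise (chi-square per degree of freedom 2.67 to 6.19), so none was merged with another as a repeat of the same library. Noise of library preparation alone could give such values.

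All genes were fitted together in R 4.3.3 with edgeR 4.0.16 (filterByExpr, TMM scaling, robust quasi-likelihood F-test, no replicate block), and a gene was called at a Benjamini-Hochberg adjusted p under 0.05. Of 53735 features 13092 were tested. Standard errors come from the F statistic and SDs from libraries. Levels per kilobase use merged exons of GENCODE release M21. Promoter windows of 300 bases are from RefSeq (GRCm38.p6), and 38 of the 41 receptors matched. Alternatives were other scalings and filters, DESeq2 1.42.0, voom in limma 3.58.1, the replicate block, a stricter threshold and each library left out. From each of 11 lists of functions, up to 3 called genes with the smallest adjusted p were named. Clock, Cry1, Arc, Arl4c, Carm1, Prmt1, Hsp90ab1, the genes that overlap receptors and those marked in the text were chosen after their values were seen. Another 5 lists hold cell type markers, and those of cells other than stroma are named at a group mean of at least 1 CPM. Markers named below that level, and the stromal ones, were chosen after their values were seen. The members and lists were chosen with earlier results of these data known.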

Additional observations from a re-analysis of the deposited data

How the results depend on the processing

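Receptors called higher numbered 3 under every alternative except the replicate block, where Nr4a1 made 4 (0.33, adjusted p = 0.00197). Receptors called lower numbered 7 in the main fit, 4 by DESeq2, and 4 to 7 when each library was left out in turn (4 without fed replicate 2). Nr2c2 and Ppard also lost the call with library totals only and at an adjusted p under 0.01 (0.0163 and 0.0302). With no filter on low counts Ppard lost it as well. With the longest transcript as the length, control levels were 48.9 for Rarg, 37.2 for Thra, 32.1 for Rxra, 31.8 for Nr1h2 and 26.1 for Rara in CPM per kilobase, so Rara moved from rank 3 to 5. Over the 10 called receptors 144 of 160 comparisons with an alternative kept the call and 16 lost it, and no called receptor changed sign. Over the 15 not called, 2 of 237 comparisons gave a call, and over the 29 named list genes 3 of 464 lost one. These comparisons include the stricter threshold, which is the main fit read again and not a refit. At an adjusted p under 0.01, ligand genes called lower were 5, glucocorticoid targets called higher 3 and vitamin D targets called higher 1. Samples with the same replicate number did not deviate together in every pair (correlations 0.10, 0.02 and 0.13), so the numbers were not taken to pair the samples. Control replicate 2 correlated more with fed replicate 1 (0.03) than with its own number. With the replicate block, 2989 genes were called higher and 2859 lower, against 2682 and 2493 without it. Among the lists the block gave 18 immediate-early genes, 3 LXR targets and 1 retinoic acid target called higher and 1 chaperone called lower, and it moved no other count of calls printed here by over 1.5 times. With library totals as the only scaling the median of all genes moved from -0.01 to 0.03. Depth limits the receptors near or under 1 CPM, Ppara, Thrb, Nr4a3 and the 16 not tested.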
